A study of Danio rerio with 8 samples.

Results

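The genes described here are the BMP antagonist *nog3* and a set of BMP ligands and response genes in sorted ventricular cardiomyocytes of the adult zebrafish. The set holds 10 genes: *nog3*, the ligand genes *bmp4*, *bmp6* and *bmp7a*, the *id* genes *id1*, *id2a*, *id2b* and *id3*, and the inhibitory Smad genes *smad6b* and *smad7*. They were found by symbol among 31388 rows of the expression table. Of the 10, 9 matched 1 row each, whereas *smad6b* is 1 of 2 rows that carry the human name SMAD6 and cannot be told apart by symbol. The set was put together with the difference between the sorted populations already known in these libraries, so the values of its genes in that comparison are a description and carry no test. The libraries came from adult *tbx5a:GFP;myl7:nuc-dsRed* fish, in which GFP is driven from a bacterial artificial chromosome with the regulatory elements of *tbx5a*, and the *myl7* promoter drives nuclear dsRed in cardiomyocytes. Fish were 6 to 9 months old, and every library carries both transgenes. Cells positive for both reporters are the *tbx5a*+ cardiomyocytes (n = 4 libraries), and cells with nuc-dsRed but no GFP are the *tbx5a*- cardiomyocytes (n = 4 libraries). Each pool of 5 hearts, numbered 2, 8, 9 or 10, gave 1 library of each population, so that the 8 libraries formed 4 pairs and the comparison asks how the transcriptomes of the 2 populations differ.

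Bone morphogenetic proteins (BMPs) are secreted ligands that bind paired type I and type II receptor kinases, which phosphorylate Smad1, Smad5 and Smad9. These Smads enter the nucleus with Smad4 and switch on target genes, among them the *id* genes and the inhibitory Smads, which feed back on the pathway. Noggin proteins, of which *nog3* encodes one, bind BMP ligands outside the cell and keep them from their receptors. In the vertebrate heart BMP signalling is best known from the specification of cardiac muscle, the atrioventricular canal and the outflow tract.

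Expression is given as the normalized value per gene, in which 1 read is worth 0.859 to 1.19 depending on the library, and as the estimated reads that this value implies. Populations are compared within a gene or within the sum of a list. The values are not scaled to transcript length, so ranks by mean and shares of a sum do not compare RNA levels between genes. Libraries held 7149173 to 9491728 estimated reads, and 13706 to 14983 genes were above 0 in *tbx5a*+ against 11329 to 13793 in *tbx5a*- libraries, with the fewest in the *tbx5a*- libraries of pools 9 and 2. Across genes, libraries of the *tbx5a*+ population correlated with each other at 0.818 to 0.843 and those of the *tbx5a*- population at 0.691 to 0.777. The gene that defines the sort, *tbx5a*, stood at 3197 to 4919 in *tbx5a*+ and at 90.5 to 442 in *tbx5a*- libraries, a log2 fold change of 4.32 (SE 0.36, limma adjusted p = 8.74e-08, higher in 4 of 4 pairs). Genes entered the test when they reached 1 CPM (the value scaled to the library total) in at least 2 libraries, which kept 13895 genes and 6 of the 11 rows of the set.

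*nog3* (ENSDARG00000053528) was read only in *tbx5a*- cardiomyocytes. Its normalized value in *tbx5a*- libraries was 51.5 in pool 2, 29.6 in pool 8, 9.48 in pool 9 and 21.5 in pool 10, and it was 0 in each of the 4 *tbx5a*+ libraries. The populations did not overlap, and the 109 estimated reads of *nog3* were spread over all 4 *tbx5a*- pools. The mean in *tbx5a*- libraries was 28.0 ± 17.7 (SD, n = 4), at least 9.57-fold higher than the level that 3 reads in each *tbx5a*+ library would give, and at least 6.9-fold higher when the *tbx5a*- library of pool 2, which held 43.1% of the reads, was left out. In sorted pools, fewer cells that express a gene and less RNA of it per cell cannot be told apart. On the log2(value + 1) scale the fitted difference was -4.63 (SE 1.30), a size that depends on the pseudocount because one population is at 0.

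The other noggin genes and chordin gave no reads. *nog1*, *nog2* and *chrd*, which encode further secreted BMP antagonists, were listed at 0 in all 8 libraries, so that *nog3* was the only noggin gene detected at this depth. Antagonists of other families were read. The follistatin gene *fsta* was at 16.4, 0, 0.96 and 24.5 in the *tbx5a*+ libraries of pools 2, 8, 9 and 10. It was at 0 in the *tbx5a*- libraries, a log2 difference of 2.44 (SE 1.34, limma adjusted p = 0.72). The rows named *GREM1* were read in both populations, with overlap. Being at 0 in every *tbx5a*+ library and above 0 in every *tbx5a*- library held for 11 of the 13895 genes tested (0.0792%), *nog3* among them. Of the 6 tested rows of the set, 1 (*nog3*) had populations that did not overlap, where 3.97% of all tested genes did not overlap in either direction and 1.65% did so with *tbx5a*- higher. A gene was called when its adjusted p did not exceed 0.05 and its log2 difference was 1 or more in size. By that rule 0 of the 6 rows were called, also with pairs as a block and by limma-voom, against 0.194%, 0.417% and 0.173% of all tested genes in these 3 fits. At an unadjusted p under 0.05, 2 of the 6 (*nog3* and *bmp4*, both higher in *tbx5a*-) passed by limma and by limma-voom, against 7.06% and 7.52% of all tested genes in either direction and 2.44% with *tbx5a*- higher by limma. These counts come from the comparison that chose the genes and nothing is read from them.

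**Figure D1:**
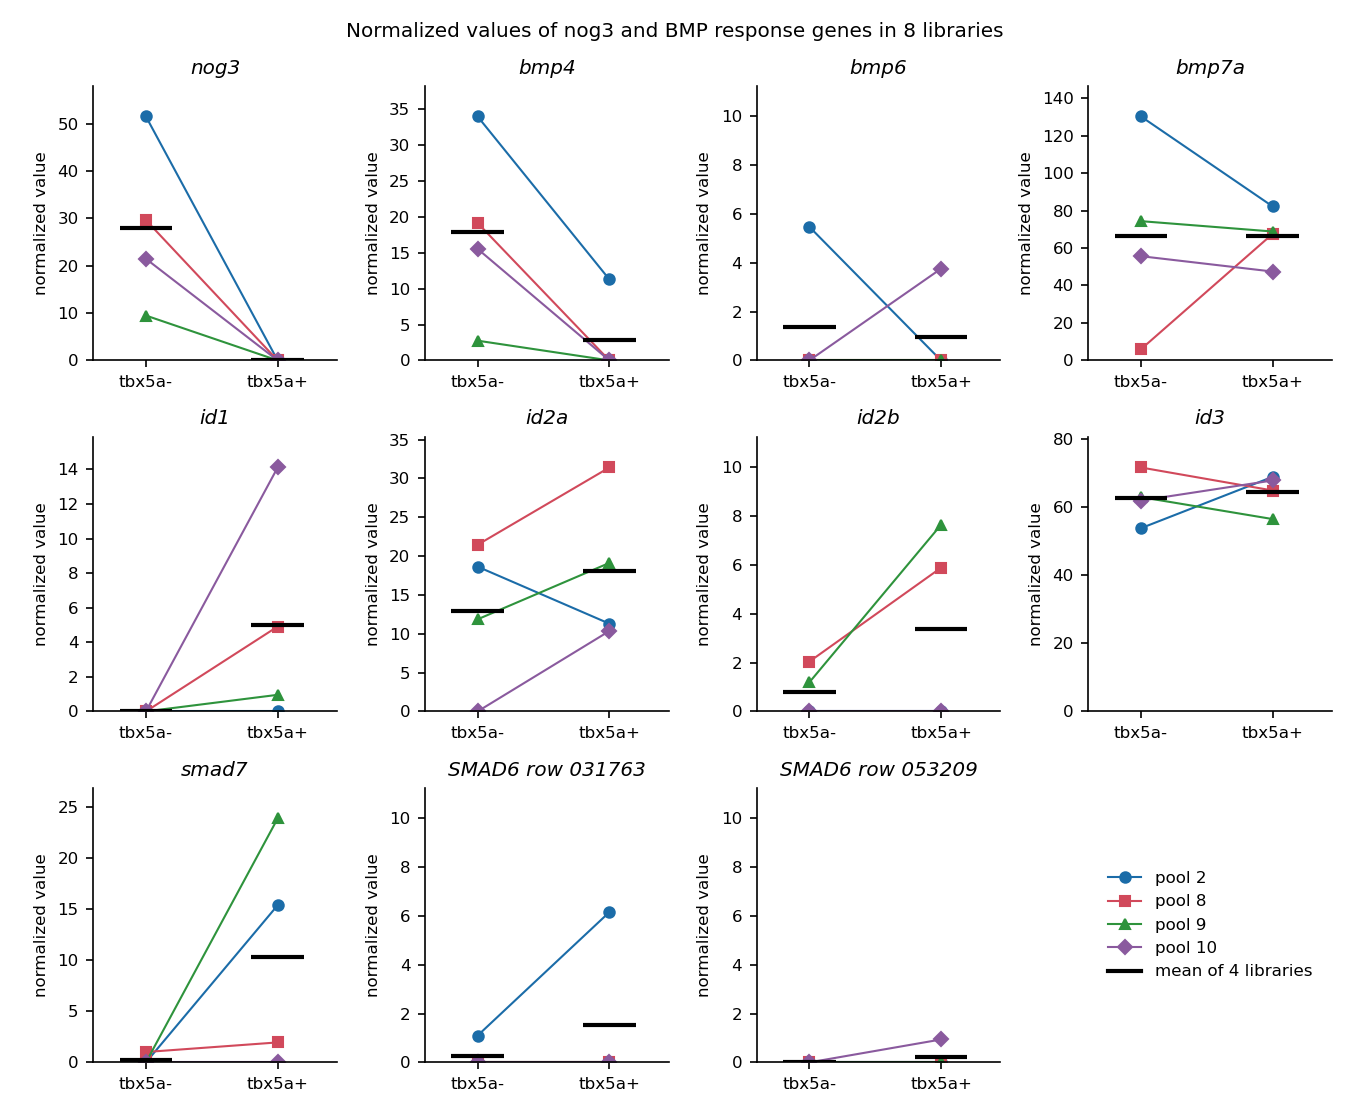
Normalized value (vertical axis, linear, from 0) of each gene of the set in *tbx5a*- and *tbx5a*+ libraries. Points are libraries, lines join the 2 libraries of 1 pool of hearts and black bars are means of 4 libraries. *nog3* falls from between 9.48 and 51.5 to 0 in every pool, *bmp4* is lower in *tbx5a*+ in 4 of 4 pools, *smad7* and *id1* are read mostly in *tbx5a*+ libraries, and *id3* stays between 53.7 and 71.5.

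Among the *tbx5a*- libraries, *nog3* was highest in pool 2, followed by pools 8, 10 and 9. The same order was found for 715 of the 10939 tested genes with 4 distinct values in these libraries (6.54%). The genes whose pattern was most like *nog3* over the 8 libraries, by Pearson's correlation of log2(value + 1), were *CXCL14* (r = 0.991), *HEY2* (r = 0.987), *mhc1uka* (r = 0.983), *si:dkey-26m3.3* (r = 0.969) and *crb2a* (r = 0.967), where capitals are the name of the human match. These values describe 8 points that share the populations and the libraries, and much of each is the gap between the populations.

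*CXCL14*, which encodes a chemokine, was at 0 in the 4 *tbx5a*+ libraries and at 106, 45.0, 5.93 and 30.9 in the *tbx5a*- libraries of pools 2, 8, 9 and 10. *HEY2*, a repressor of transcription that Notch signals induce, had 1 read in the *tbx5a*+ library of pool 2, none in the others, and values of 69.1, 45.0, 20.2 and 22.3 in *tbx5a*- libraries in the same order of pools. *crb2a*, which encodes a Crumbs protein of apicobasal polarity, was at 0 in the 4 *tbx5a*+ libraries and at 161, 111, 155 and 115 in *tbx5a*- libraries. *CXCL14* and *HEY2* thus had the order of pools seen for *nog3*, and *crb2a* did not, its *tbx5a*- libraries lying close together. These genes were picked by their correlation with *nog3* over the same libraries, so a shared order is no further result. With 3 reads per *tbx5a*+ library as the floor, *CXCL14* was at least 16.1-fold and *crb2a* at least 46.3-fold higher in *tbx5a*- libraries, and the bound for *CXCL14* was 9.31-fold without the *tbx5a*- library of pool 2. The class I histocompatibility gene *mhc1uka* reached 15.4 to 58.1 in *tbx5a*- libraries and had 1 read in *tbx5a*+ libraries, although reads may be divided among the related copies of this gene family. *si:dkey-26m3.3* was read in every library of both populations, at 25.2 to 32.3 in *tbx5a*+ and 55.6 to 86.9 in *tbx5a*- libraries.

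**Figure D2:**
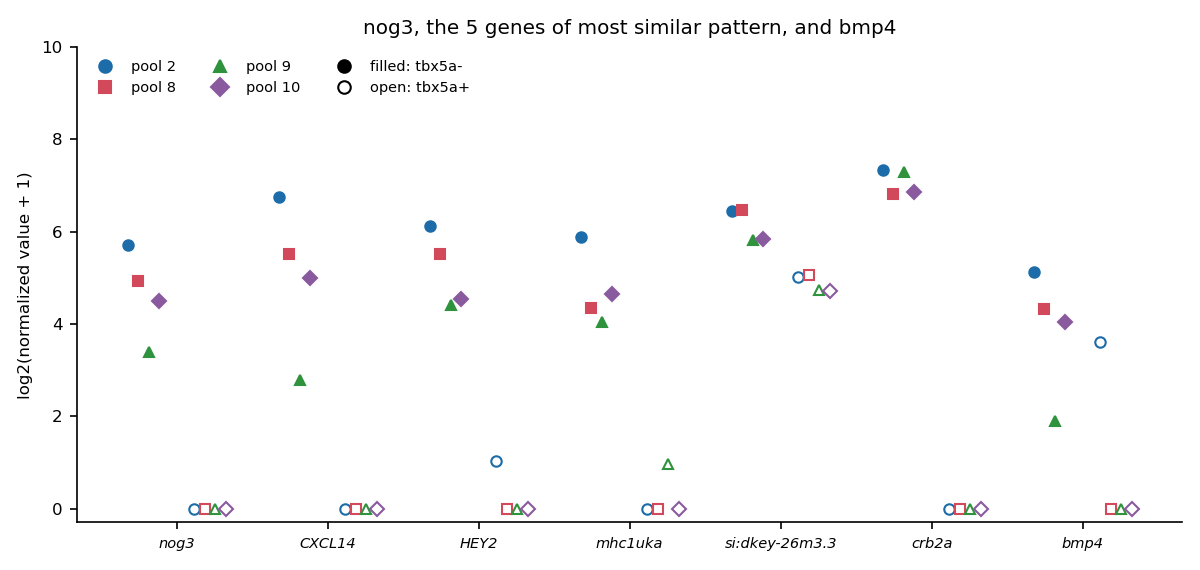
Expression of *nog3*, of the 5 genes with the highest correlation with it and of *bmp4*, as log2(normalized value + 1) per library. Filled symbols are *tbx5a*- and open symbols *tbx5a*+ libraries, with 1 symbol shape per pool. The *tbx5a*+ libraries of *nog3*, *CXCL14* and *crb2a* all lie at 0, and the *tbx5a*- libraries of *nog3* and *bmp4* share the order of pools 2, 8, 10 and 9.

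Between the tested ligand genes of the set, *bmp4* (0.805) and *bmp7a* (-0.24), *bmp4* had the higher correlation with *nog3*. Ligand genes outside the set were not ranked this way. Bmp4 is a ligand that noggin proteins bind. Its normalized value (*bmp4*, ENSDARG00000019995) in *tbx5a*- libraries was 34.0 in pool 2, 19.2 in pool 8, 2.75 in pool 9 and 15.5 in pool 10. In *tbx5a*+ libraries it was 11.3 in pool 2 and 0 in pools 8, 9 and 10. The value was therefore lower in *tbx5a*+ in 4 of 4 pairs (as in 5.38% of all tested genes), although the populations overlapped because the *tbx5a*- library of pool 9 lay below the *tbx5a*+ library of pool 2. Summed over libraries, 70 estimated reads in *tbx5a*- stood against 11 in *tbx5a*+, a ratio of 6.70 after scaling (95% exact interval 3.52 to 14.0, counting error only). All 11 reads in *tbx5a*+ came from pool 2. Without that library *bmp4* was at least 6.2-fold higher in *tbx5a*- libraries. The fitted log2 difference was -2.95 (SE 1.40), and the correlation of *bmp4* with *nog3* over the 8 libraries was 0.805, at rank 134 of 13894 genes. Both genes were put in the set with the difference between the populations known. Much of this correlation is that gap, and nothing further is read from its rank. Estimated reads of *bmp4* in the *tbx5a*- libraries of pools 8, 9 and 10 were not whole, at 18.7, 2.3 and 18.1.

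*bmp7a* was read in every library of both populations. This gene (ENSDARG00000018260) encodes a ligand that also pairs with Bmp2 or Bmp4 as a heterodimer. Its normalized value was 82.2, 67.6, 68.8 and 47.4 in the *tbx5a*+ libraries of pools 2, 8, 9 and 10. In the *tbx5a*- libraries it was 130, 5.98, 74.4 and 55.6. The means of 66.5 ± 14.3 in *tbx5a*+ and 66.6 ± 51.3 in *tbx5a*- (SD, n = 4 each) were nearly equal, and the *tbx5a*- libraries held both the highest and the lowest value. It was lower in *tbx5a*+ in 3 of 4 pairs. The fitted log2 difference was 0.58 (SE 0.75) and turned to -0.31 without the *tbx5a*- library of pool 8. *bmp6* (ENSDARG00000015686), another BMP ligand gene, had 4 estimated reads in the *tbx5a*+ library of pool 10, 5 in the *tbx5a*- library of pool 2 and none elsewhere, too few to be tested.

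Id proteins lack a DNA-binding domain and hold E proteins in inactive dimers, and their genes are direct targets of phosphorylated Smads. Among them *id3* (ENSDARG00000054823) had nearly the same value in all libraries. In *tbx5a*+ libraries it was 68.8, 64.8, 56.4 and 67.7 in pools 2, 8, 9 and 10, and in *tbx5a*- libraries 53.7, 71.5, 62.8 and 61.8. The populations overlapped fully, with means of 64.4 ± 5.62 in *tbx5a*+ and 62.5 ± 7.28 in *tbx5a*- (SD, n = 4 each) and 2 of 4 pairs higher in each direction. The fitted log2 difference of 0.05 (SE 0.54) became -0.07 when values were scaled to library totals. In the fit this SE is drawn toward the spread of genes of like level. It exceeds the scatter of *id3* itself, whose 4 pair differences had an SD of 0.24.

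Over the 8 libraries the spread of *id3* was below that of other tested genes of like mean. Its coefficient of variation over the 8 libraries was 9.63%, where the median of 1325 tested genes of like mean (50.8 to 79.3) was 54.1% and 0 of them had a smaller one. *STX16*, which encodes a syntaxin, came next with 13.8%. In estimated reads the SD of *id3* was 8.83 around a mean of 63.5, beside 7.97 for counting error alone. In normalized values, from which the coefficient was taken, the SD was 6.11 around a mean of 63.5. This lies below the counting error, and whether the low rank is a trait of *id3* was not tested. The comparison of spread was not in the design and was made for *id3* and *bmp7a* only. *bmp7a*, with a mean near that of *id3*, had a coefficient of variation of 52.4%, and 47.7% of 1299 genes of like mean had a smaller one.

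**Figure D3:**
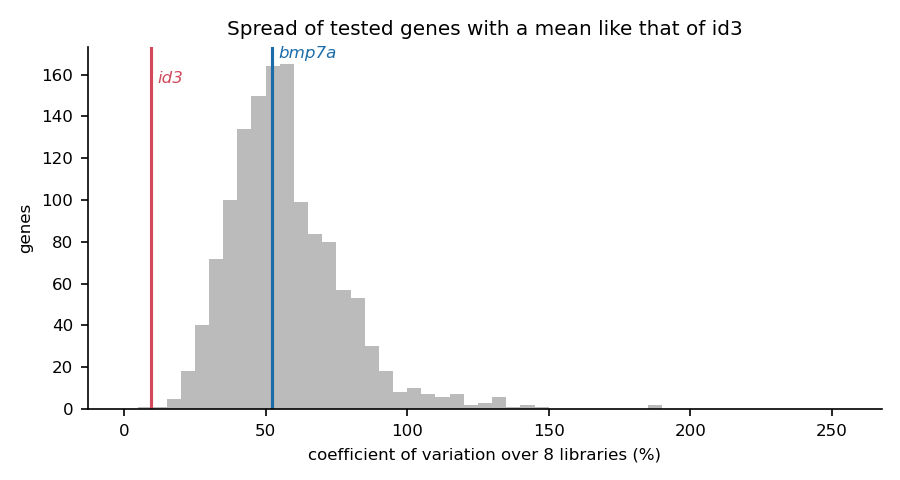
Coefficient of variation over the 8 libraries (horizontal axis, percent) of the tested genes with a mean like that of *id3*, as numbers of genes per bin (vertical axis). Vertical lines mark *id3* at 9.63%, below every other gene drawn, and *bmp7a* at 52.4%, near the median of 54.1%.

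The remaining *id* genes had fewer reads. *id2a* (ENSDARG00000055283, listed under the human name ID2) stood at 11.3, 31.4, 19.1 and 10.4 in the *tbx5a*+ libraries of pools 2, 8, 9 and 10 and at 18.6, 21.5, 11.9 and 0 in the *tbx5a*- libraries. The populations overlapped, 3 of 4 pairs were higher in *tbx5a*+, and the fitted log2 difference of 1.0 (SE 1.28) was -0.04 without the *tbx5a*- library of pool 10. *id1* (ENSDARG00000040764) was at 0 in the 4 *tbx5a*- libraries and at 0, 4.91, 0.96 and 14.1 in the *tbx5a*+ libraries of pools 2, 8, 9 and 10. These were 21 reads, 15 of them in pool 10, and the mean in *tbx5a*+ was at least 1.60-fold higher than the level of 3 reads in each *tbx5a*- library. Without the *tbx5a*+ library of pool 10 the mean was 1.96, below that level of 3.12, and no such bound can be given. *id2b* (ENSDARG00000029544) had 14 estimated reads in *tbx5a*+ and 3 in *tbx5a*- libraries, all of them in pools 8 and 9, a ratio of 4.44 with an exact interval of 1.24 to 24.1 for counting error. Without the *tbx5a*+ library of pool 9 the ratio was 2.55 (0.545 to 15.8), and without the *tbx5a*- library of pool 8 it was 9.97 (1.52 to 421). It was 3.37 (0.809 to 19.7) without the *tbx5a*+ library of pool 8. Without the *tbx5a*- library of pool 2 or 10 it was 3.40 (0.948 to 18.4) or 3.11 (0.868 to 16.9). With any other library left out it was 5.21 to 5.99. Spread between libraries is not part of these intervals. Neither *id1* nor *id2b* passed the filter on low values.

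*smad7* (ENSDARG00000016858), an inhibitory Smad that blocks the receptors of the BMP and TGF-β pathways, was read almost entirely in *tbx5a*+ cardiomyocytes. Its normalized value was 15.4 in pool 2, 1.96 in pool 8, 23.9 in pool 9 and 0 in pool 10 of the *tbx5a*+ libraries. In *tbx5a*- libraries it was 1.02 in pool 8 and 0 in the others. The populations overlapped through the *tbx5a*+ library of pool 10, and 3 of 4 pairs were higher in *tbx5a*+. Of 42 estimated reads in *tbx5a*+, 15 came from pool 2 and 25 from pool 9, against 1 read in all *tbx5a*- libraries, a ratio of 39.9 with an exact interval of 6.78 to 1614 for counting error. Without the *tbx5a*+ library of pool 9 the ratio was 21.7 (3.40 to 906), and without the *tbx5a*- library of pool 8 no *tbx5a*- read was left. The fitted log2 difference was 2.31 (SE 1.35). Direction was thus opposite to that of *nog3*, with which *smad7* had a correlation of -0.617 over the 8 libraries. Much of this correlation too is the gap between the populations. Of the 2 rows named SMAD6, the gene of the other inhibitory Smad, ENSDARG00000031763 had 6 estimated reads in the *tbx5a*+ and 1 in the *tbx5a*- library of pool 2, and ENSDARG00000053209 had 1 read in the *tbx5a*+ library of pool 10. Neither row could be tested.

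A wider list of 91 other BMP pathway genes was drawn up by role, with earlier results of these data known. It matched 97 rows, of which 29 were at 0 in every library and 50 were tested. No gene of the list was called by limma or limma-voom (0 of 50). At an unadjusted p under 0.05, 3 were higher and 3 lower in *tbx5a*+ by limma, against 4.62% and 2.44% of all tested genes, and limma-voom had 7 in all. With pairs as a block, 1 gene of the 50 (*bmp10*) was called, where the block called 0.137% of all tested genes as higher in *tbx5a*+. *bmp10* had been singled out by name with earlier results known, so its call is no independent result. The median log2 difference of the 50 genes was 0.09, beside 0.20 for all 13895 tested genes, and when values were scaled to library totals both shifted down, to -0.03 and 0.09. Without 1 library the order of these medians turned in 3 of 8 cases, to 0.26 against 0.22 without the *tbx5a*+ library of pool 8, 0.23 against 0.21 without that of pool 10 and 0.16 against 0.13 without the *tbx5a*- library of pool 9.

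Of 2 rows named BMP10, which cannot be told apart by symbol, *bmp10* stands here for ENSDARG00000045632. In the mouse the gene of this name encodes a ligand of trabecular heart muscle. The row was at 1062, 845, 682 and 724 in the *tbx5a*+ libraries of pools 2, 8, 9 and 10. It was at 407, 301, 227 and 522 in the *tbx5a*- libraries, without overlap (2.32% of all tested genes were separated in this direction). Its log2 fold change was 1.23 (SE 0.28), with a limma adjusted p of 0.080 without the block and 0.0061 with it (SE 0.24), higher in 4 of 4 pairs. The limma adjusted p without the block was 0.0443 when the *tbx5a*- library of pool 10 was left out. It was 0.123 to 0.392 with any other single library left out, and 0.21 when values were scaled to library totals. By limma-voom the adjusted p was 0.0977. The further row named BMP10, ENSDARG00000061769, had a value of 12.4 in 1 *tbx5a*+ library and 1.1 in 1 *tbx5a*- library only. *bmp16* ranged from 112 to 396 over the 8 libraries with a log2 difference of 0.03 (SE 0.39), and *bmp8a* had -1.64 (SE 1.36). Of the 20 ligand rows, 10 were at 0 in every library, among them those of *bmp3*, *bmp5* and *gdf6a*.

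Secreted regulators were the largest group, with 30 rows, 14 of them tested and none called. The median log2 difference of the tested rows was -0.13, with 6 above and 8 below 0. *crim1*, which encodes a cysteine-rich transmembrane protein that tethers BMPs, ranged from 735 to 1354 and had a difference of 0.27 (SE 0.24). *FSTL1*, a follistatin-like glycoprotein, had -0.16 (SE 0.27), and *bmper*, an extracellular regulator of BMP4, had -0.22 (SE 0.39).

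Receptors gave genes on both sides. Of 15 rows, 11 were tested, with a median log2 difference of 0.64 and 9 above 0. Among all 13895 tested genes the median was 0.20, with 8514 above 0. *bmpr2a*, a type II BMP receptor gene, was at 55.2, 71.7, 46.6 and 25.5 in the *tbx5a*+ libraries of pools 2, 8, 9 and 10 and at 157, 74.6, 110 and 113 in the *tbx5a*- libraries. Its populations did not overlap, but its log2 difference of -1.22 (SE 0.54) did not pass the limma test after adjustment (adjusted p = 0.69). *acvr2ab*, an activin type II receptor gene, was at 8.83 to 31.6 in *tbx5a*+ libraries and at 0 in 3 of the 4 *tbx5a*- libraries, with 24.1 in pool 10, a difference of 3.05 (SE 1.41, limma adjusted p = 0.70). Among the rows of highest mean value, differences were -0.22 (SE 0.48) and 0.02 (SE 0.56) for the rows named *BMPR1A*, a type I receptor, and 0.13 (SE 0.38) for *acvr2aa*.

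Inside the cell, all 15 rows were tested and their median log2 difference was 0.04. *smad9*, one of the Smads phosphorylated by BMP receptors, was at 38.5, 42.3, 32.0 and 11.3 in the *tbx5a*+ libraries of pools 2, 8, 9 and 10 and at 142, 83.3, 47.4 and 106 in the *tbx5a*- libraries. The populations did not overlap, and the log2 difference was -1.62 (SE 0.67, limma adjusted p = 0.65). *smad1* ranged from 559 to 1641 with a difference of 0.04 (SE 0.29). *ppm1aa*, which encodes a phosphatase that acts on Smads, stood at 451 to 690 in *tbx5a*+ and at 147 to 419 in *tbx5a*- libraries, a log2 difference of 0.93 (SE 0.31, limma adjusted p = 0.51, and 0.15 with the block). *skila*, a gene of the Ski family of Smad co-repressors, had a difference of -1.1 (SE 0.47, limma adjusted p = 0.67), and *tob1a* and *tob1b*, whose products bind Smads, had 0.45 (SE 0.32) and 0.07 (SE 0.23). Along with *bmpr2a* and *acvr2ab*, the genes *smad9*, *ppm1aa* and *skila* were those with an unadjusted p under 0.05 that no other rule named, and were chosen after their values had been seen. Of the 50 tested pathway rows, the populations did not overlap in 2 with *tbx5a*+ higher (*bmp10* and *ppm1aa*) and 2 with *tbx5a*- higher (*bmpr2a* and *smad9*), beside 2.32% and 1.65% of all tested genes.

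Of the 14 rows of other BMP targets, 6 were at 0 in every library and 3 could be tested. *id4*, a further *id* gene, was at 42.9 in the *tbx5a*- library of pool 10 and at 0 to 11.3 in the other 7 libraries, with a log2 difference of 0.26 (SE 1.46). *msx2b*, a homeobox gene, had 0.39 (SE 1.12), and the tested *TBX2* row, a T-box repressor, had -2.01 (SE 1.52). The E protein genes *tcf3a*, *tcf3b* and *tcf12*, whose products are bound by Id proteins, had differences of 0.08 (SE 0.64), -0.19 (SE 0.32) and 0.10 (SE 0.36). None of these 6 genes passed the test.

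**Figure D4:**
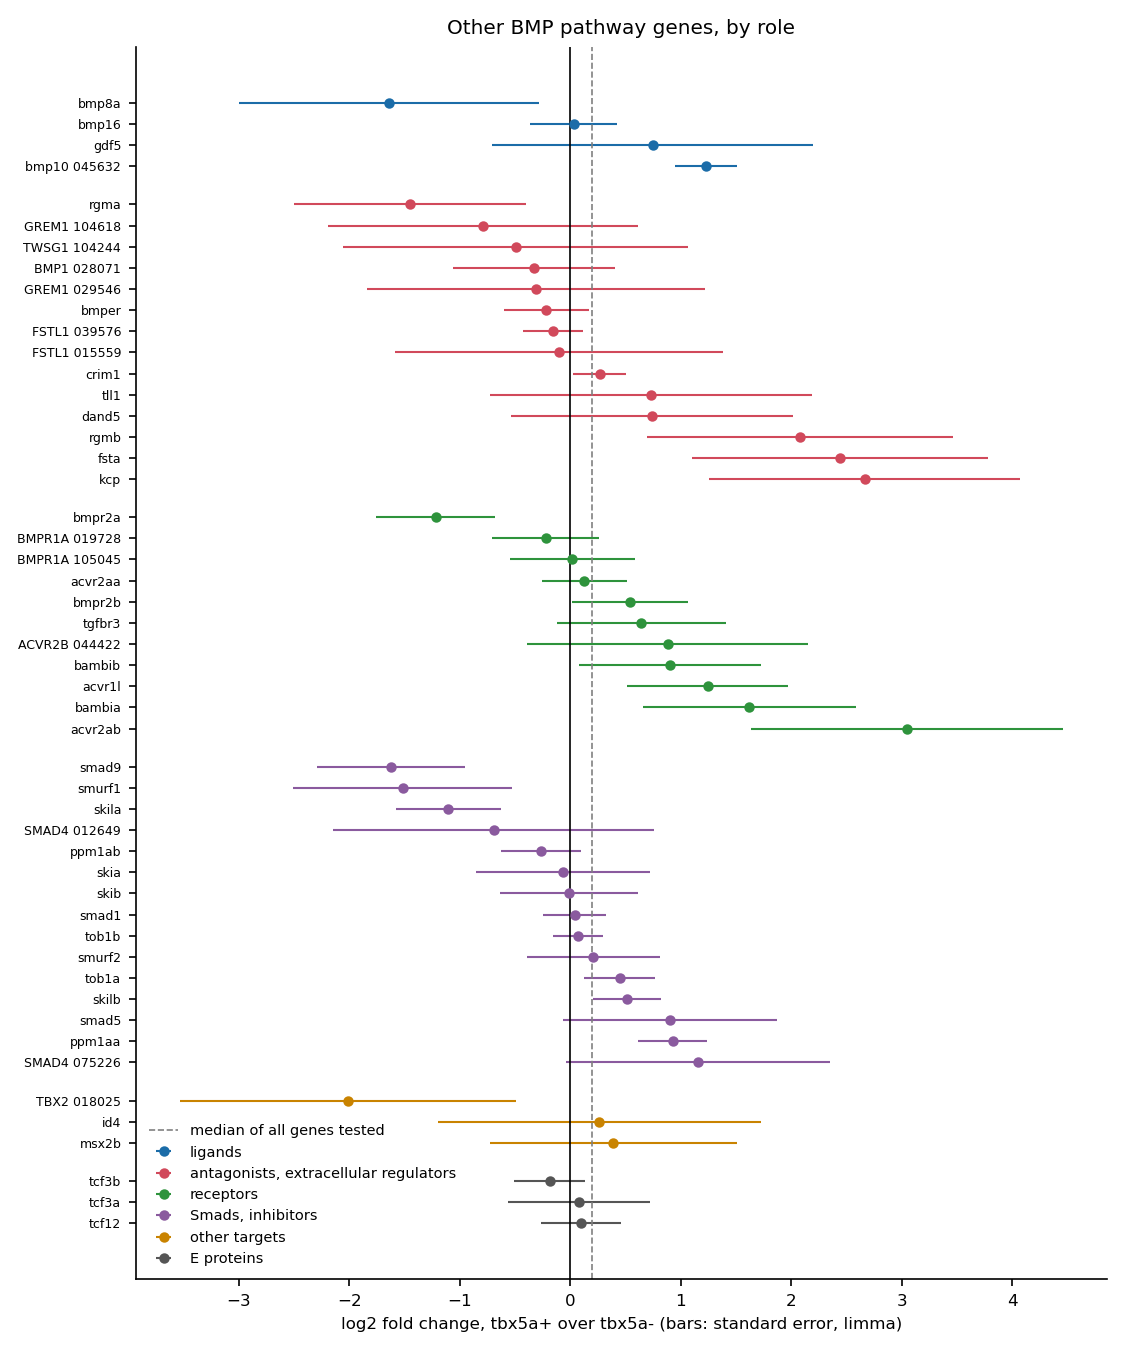
Log2 fold change of *tbx5a*+ over *tbx5a*- (horizontal axis) for the 50 tested rows of the wider BMP pathway list, grouped by role, with the standard error from limma as bars. The dashed line is the median of all genes tested, 0.20. *bmp10*, at 1.23, has the narrowest error among the rows beyond 1. Above 0 lie 30 rows and below it 20, beside 8514 and 5381 of all 13895 tested genes.

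Markers of other heart cells were measured beside *nog3* and *bmp4*. Cardiomyocyte markers, led by *TNNT2* and *myl7*, summed to 377900 to 434100 in *tbx5a*+ and 369000 to 447500 in *tbx5a*- libraries, and 1 of their 12 rows (*vmhc*) was called, higher in *tbx5a*-. The epicardial list of 6 rows summed to 32.7 to 92.5 in *tbx5a*+ and to 204, 63.8, 3.44 and 10.6 in the *tbx5a*- libraries of pools 2, 8, 9 and 10, with *tcf21* and *wt1a* at 0 in all libraries. Its order among *tbx5a*- libraries was that of *nog3*. In pools 9 and 10 the *tbx5a*- libraries had lower epicardial sums than every *tbx5a*+ library. *wt1b* stood at 135 and 47.5 in the *tbx5a*- libraries of pools 2 and 8 and 1.07 and 1.13 in those of pools 9 and 10, and *aldh1a2* ranged from 2.37 to 69.7 over all libraries. The 13 rows of smooth muscle, mural and bulbus markers summed to 210 to 545 in *tbx5a*+ and to 572 to 2856 in *tbx5a*- libraries, without overlap. Most of each sum was the *tagln* row ENSDARG00000045408, at 144 to 437 in *tbx5a*+ and 376 to 2063 in *tbx5a*- libraries. This row itself overlapped, at 376 in the *tbx5a*- library of pool 8 and 437 in the *tbx5a*+ library of pool 10. The gap between the sums was therefore not that of *tagln* alone, and *acta2*, given below, did not overlap. Sums led by few rows do not show a separation of the whole list. Of the 13 rows, *acta2* and this *tagln* row were called higher in *tbx5a*- by limma (0.187% of all tested genes were). *acta2* stood at 111 to 518 in *tbx5a*- and at 0 to 5.84 in *tbx5a*+ libraries, and *rgs5a* was at 0 in every library. The order of the smooth muscle sums among *tbx5a*- libraries was pools 9, 2, 10 and 8, and that of *nog3* was pools 2, 8, 10 and 9. What part cells of these types have in the reads of *nog3* or *bmp4* was not tested.

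Other lists overlapped between the populations. The 14 endothelial and endocardial rows, led by *cdh5* and *nfatc1*, summed to 155 to 283 in *tbx5a*+ and 93.6 to 327 in *tbx5a*- libraries, and the 11 fibroblast rows, led by *col1a1a* and *col5a1*, to 47.3 to 122 and 33.9 to 343. Red blood cell markers, led by *gata1a* and *SLC4A1*, reached at most 49.96, and *hbaa1*, *hbaa2* and *alas2* were at 0 in every library. Leukocyte markers, led by *ptprc* and *lcp1*, reached at most 33.5, with *coro1a*, *lyz*, *csf1ra* and *marco* at 0, and neural crest and Schwann cell markers, led by *plp1a* and *mpz*, at most 66.3.

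**Figure D5:**
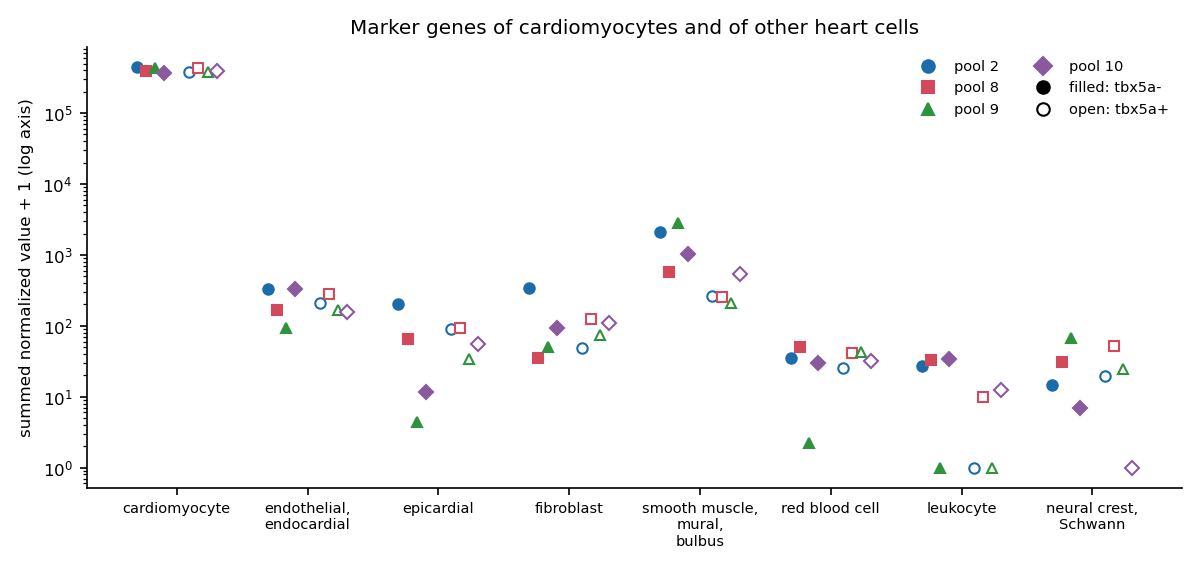
Summed normalized value plus 1 (vertical axis, log scale) of marker genes of cardiomyocytes and of 7 other kinds of heart cell, per library. Filled symbols are *tbx5a*- and open symbols *tbx5a*+ libraries, with 1 symbol shape per pool. Cardiomyocyte markers lie between 369000 and 447500 in all libraries. The sum of smooth muscle, mural and bulbus markers is higher in every *tbx5a*- than in any *tbx5a*+ library. Most of it is from *tagln*, whose own values overlap between the populations.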

How the data were processed

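RNA was measured in 8 libraries, each made by the authors from 0.6 ng of RNA (Ovation Single Cell kit, 2 rounds of amplification) and read as 60-base single reads. The methods name cutadapt 1.9.1, RSEM 1.2.25 and the transcriptome of Ensembl release 82, and the submitters' processing notes give CASAVA 1.8.2, RSEM 1.2.3 and Zv9 as the build. Since it was not settled which were used, coordinates were left out. The deposited values are a normalized signal for each gene in each library, not counts. Its low values are mostly multiples of 1 spacing per library (71.1% to 77.7% of values below 60, within 0.0051), which gave the estimated reads. Since the rest lay between multiples, no count model was used.

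In R 4.3.3, limma 3.58.1 was fitted to log2(value + 1) with a variance trend, as the design named for normalized values, and *p*-values were adjusted over all 13895 genes tested. Each SE of a fitted difference is moderated toward that trend and is not the scatter of the gene alone. Intervals are exact binomial at 95%, a floor is 3 reads per library, and both cover counting error only. Tables were made in Python 3.11.15 (pandas 2.3.3, numpy 2.4.6, scipy 1.17.1). The fit was tested on simulated data with 200 changed genes.

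The series describes its replicates as paired, and 1 pool gave both libraries of a number. Deviations from the group means correlated at 0.089, 0.0584, 0.0428 and 0.0763 for pools 2, 8, 9 and 10, each library correlating best with its own number. Blocked values are given where they change a call.

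Symbols came from a table of Ensembl names, with *nog3*, listed there as NOG, named from the study's gene list. Of the 91 other pathway symbols, 6 matched no row. The genes and lists were chosen with earlier results of these data known. Genes named were the 10 of the set, *tbx5a*, *bmp10*, pathway genes called with or without the block, the 3 genes of highest mean in each pathway list, the 5 genes most correlated with *nog3*, and the 2 genes of highest mean in each marker list. Pathway genes with an unadjusted p under 0.05, *nog1*, *nog2*, *chrd*, *fsta*, *GREM1* and other genes at 0 or called in a list were named after their values were seen. Alternatives were other pseudocounts, filters, scalings, limma-voom, the block and left-out libraries.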

Additional observations from a re-analysis of the deposited data

Results flagged for a closer look

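In 62 groups of 4 libraries, the highest or lowest library was compared with the nearest of the others, and 12 groups held a library that stood far from the other 3. Chance alone gives about 1 such group in 20 for normally distributed values. That rate need not hold for the untransformed values used here. It does not hold for groups with 3 libraries at 0, which meet the criterion by construction. Among genes read in most libraries, *crim1* stood at 1354.35 in the *tbx5a*- library of pool 10 against 735 to 821 in the others, and *bmp8a* at 31.98 in the *tbx5a*+ library of pool 10 against 1.91 to 2.05. *id4* stood at 42.94 in the *tbx5a*- library of pool 10 against at most 1.02.

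In the other 9 groups, 1 library was above 0 and the other 3 were at 0. These were *bmp4* in *tbx5a*+ (11.29, pool 2), *bmp6* in *tbx5a*+ (3.76, pool 10) and *tbx5a*- (5.48, pool 2), and *smad7* in *tbx5a*- (1.02, pool 8). They also were the further row named BMP10 in *tbx5a*+ (12.43, pool 9) and *tbx5a*- (1.1, pool 2), the SMAD6 row ENSDARG00000031763 in *tbx5a*+ (6.16, pool 2) and *tbx5a*- (1.1, pool 2), and the SMAD6 row ENSDARG00000053209 in *tbx5a*+ (0.94, pool 10).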

How the results depend on the processing

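Of 452 values recomputed under the alternatives, 400 were counted as unchanged. For a number of calls this meant a size near that of the main fit. For a tested gene it meant the same direction and call. For a gene of the set it meant the same direction and a shift within 1 SD of its libraries. Among the genes of the set, which carry no test, *id3* changed sign when scaled to library totals (-0.07), without the *tbx5a*- library of pool 2 (-0.02) and without those of pools 2 and 9 (-0.05), *bmp7a* without the *tbx5a*- library of pool 8 (-0.31) and *id2a* without that of pool 10 (-0.04). With the pairs as a replicate block, 58 in place of 27 genes were called, 19 of them (32.8%) higher in *tbx5a*+ in place of 1 (3.7%), and 1 in place of 0 pathway genes (*bmp10*, log2 difference 1.23). *bmp10* also passed with a pseudocount of 5 (1.22, adjusted p = 0.0474, 1 pathway gene called) and without the *tbx5a*- library of pool 10 (1.43, adjusted p = 0.0443). Under every other alternative *bmp10* did not pass. Its limma adjusted p there reached 0.703, without the *tbx5a*- libraries of pools 2 and 9. The block changed no other call among the named genes. Leaving out 1 library at a time gave 19 to 31 calls, with 0 to 1 in the pathway, and 8 calls were higher in *tbx5a*+ without the *tbx5a*+ library of pool 8. Leaving out the *tbx5a*- libraries of pools 2 and 9, which had the fewest genes detected, gave 6 calls. The *nog3* difference kept its direction but shifted by more than 1 SD of its libraries, to -5.60 with a pseudocount of 0.5, -2.56 with 5 and -5.65 by limma-voom. Differences near 0 changed sign, and the cause was not tested. Scaling to library totals gave *bmp16* -0.0892, the *BMPR1A* row ENSDARG00000105045 -0.099, *tob1b* -0.0473, *smad1* -0.0799, *tcf12* -0.0213 and *tcf3a* -0.0388. A pseudocount of 5 gave that *BMPR1A* row -0.00341 and *id4* -0.123. Without the *tbx5a*- libraries of pools 2 and 9, the other *BMPR1A* row had 0.242, *smad1* -0.0484, *msx2b* -0.133 and *id4* -1.36. With 1 library left out at a time, the ranges were -0.266 to 0.339 for *bmp16*, -0.387 to 0.031 for *bmper*, -0.663 to 0.634 and -0.556 to 0.236 for the *BMPR1A* rows, -0.044 to 0.166 for *tob1b*, -0.198 to 0.32 for *smad1*, -0.0907 to 0.774 for *msx2b*, -0.279 to 0.887 for *id4*, -0.313 to 0.00298 for *tcf3b*, -0.0391 to 0.249 for *tcf12* and -0.101 to 0.366 for *tcf3a*. With under 10 reads over all libraries, *bmp6* and both SMAD6 rows allow no comparison at this depth. Bounds and ratios without each library were added after seeing the data.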
